A study of Pan troglodytes with 38 samples.

Results

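Of 38 chimpanzee hearts sequenced post mortem, 7 had 42% or more of their annotated gene counts on the 13 protein genes of the mitochondrial genome, and these high hearts are described here. They were selected on that measured share within the RNA extraction of 10/10/18, which holds 21 hearts, and were compared with the 14 other hearts of the same extraction. The remaining 17 hearts, extracted on earlier dates and called the earlier hearts, lie outside the rule and served as separate samples. Each library was made from poly(A) RNA of frozen tissue from a different animal, and the labels name the tissue as heart without a chamber. The paper reports that some of its chimpanzees are first-degree relatives, and relatedness was not a term in the fits here. Sex, age, RNA integrity number (RIN, a score of RNA intactness), primate center and virus notes came from the study's sample table.

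The 7 high hearts were 537 (male, 26 years, RIN 7.2), 558 (female, 32 years, RIN 8.4), 529 (male, RIN 5) and 495 (male, RIN 3.5) from Yerkes, 4X0339 (male, 23 years, RIN 2.5, HBV+) and 4X0354 (male, 21 years, RIN 3.3, HCV+) from SNPRC, and Little_R (female, RIN 7.8) from the Little Rock Zoo. No age was listed for 529, 495 and Little_R. The 14 other hearts came from 4 males and 10 females aged 15 to 57 years (1 without an age), 8 from Yerkes and 6 from SNPRC, with RIN 3.2 to 8.2. All 6 of those from SNPRC carried a virus note, 5 for HBV, HCV or both and 1 for exposure to HIV with a negative test. The 17 earlier hearts came from 7 males and 10 females aged 10 to 55 years, and none had a virus note. The high hearts thus differed from the others in sex (5 of 7 male against 4 of 14), so sex was a term in the fits. Their RIN fell into a lower group (4 hearts at 5 or below) and an upper group (3 hearts above 5), and both were also present among the other hearts (6 and 8).

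Mitochondria keep a small circular genome that encodes subunits of respiratory complexes I, III and IV and of ATP synthase. Most of its messenger transcripts carry short poly(A) tails, so poly(A) capture retains those. All other proteins of the respiratory chain, the tricarboxylic acid cycle, fatty acid oxidation and the mitochondrial ribosome are encoded in the nucleus, translated in the cytosol and imported. Heart muscle cells are packed with mitochondria, and their mitochondrial and nuclear transcripts are made, stored and degraded in different compartments.

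The share of counts on the 13 genes, by which the hearts were chosen, was 60.1% in 537, 53.9% in 558, 52.7% in 529, 51.7% in 4X0339, 48.3% in Little_R, 45.3% in 495 and 42.99% in 4X0354. The 14 other hearts ranged from 21.5% to 40.04%, and the 17 earlier hearts from 17.2% to 34.98%. The heart just inside the threshold was 4X0354 at 42.99% and the heart just outside was 4X0357 at 40.04%, followed by 389 at 35.8%. Counts on the 13 genes themselves overlapped between the groups, at 19217670 to 37680866 in the high hearts and 13683667 to 42720710 in the others. Counts on all other genes did not overlap, at 21513983 to 29994147 in the high hearts against 36965016 to 92850946 in the others. The high share therefore went with a low non-mitochondrial total in all 7 libraries. These values enter the rule and are descriptions without a test.

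**Figure D1:**
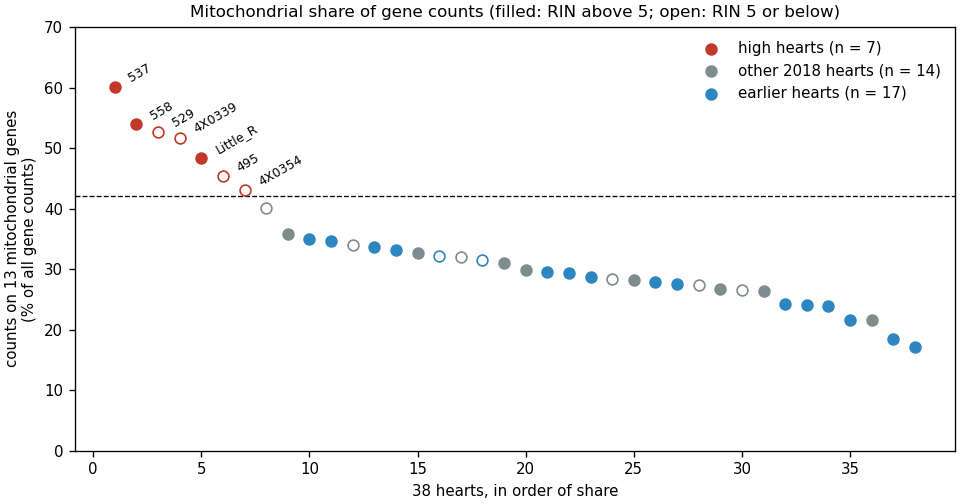
Percent of all gene counts on the 13 mitochondrial genes (y axis) for the 38 hearts in order of share (x axis), with high hearts in red, the 14 other hearts of 2018 in grey, the 17 earlier hearts in blue, and open symbols for RIN 5 or below. The 7 high hearts lie between 42.99% and 60.1%, above the dashed line at 42%, and both RIN classes occur among them.

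The division of the mitochondrial counts among the 13 genes was not used by the rule and could be tested. No gene took a different part of the sum in the high hearts after adjustment over the 13 tests (exact two-sided permutation test over 116280 relabellings, Benjamini-Hochberg). MT-CO1, a core subunit of cytochrome c oxidase, held the largest part in every heart, with 52.7% ± 5.07 (SD, n = 7) against 58.4% ± 8.21 (SD, n = 14) (exact permutation p = 0.11, adjusted p = 0.25). The lowest unadjusted value belonged to MT-ND2, a complex I subunit, with 6.33% ± 1.73 (SD, n = 7) against 4.52% ± 1.23 (SD, n = 14) (exact permutation p = 0.012, adjusted p = 0.15). MT-CO2 held 14.4% ± 2.46 (SD, n = 7) against 11.99% ± 2.16 (SD, n = 14) (exact permutation p = 0.036, adjusted p = 0.15). None of these 3 passed after adjustment. The means of the other genes were 6.94% against 6.13% for MT-ND1, 9.07% against 8.37% for MT-ND4, 1.96% against 1.61% for MT-ND3, 2.20% against 1.89% for MT-ND4L and 1.86% against 2.35% for MT-ND5.

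The remaining 5 genes, also not past the threshold, included some that fell into separate levels. MT-ATP6, a subunit of ATP synthase, took 4.09% of the sum in 495, 6.54% in 4X0354 and 7.05% in 529, but 0.0102% in Little_R, 0.0143% in 537, 0.0159% in 558 and 0.0394% in 4X0339. No heart lay between these levels: 5 of the 14 others and 7 of the 17 earlier hearts stood at or above 3.87%, and all the rest at or below 0.0157%. MT-CO3, which lies next to MT-ATP6 on the mitochondrial genome, moved with it, with 1.10% to 3.54% in the same 3 high hearts and 0.00578% to 0.0131% in the other 4. MT-ND6 and its neighbour MT-CYB were likewise higher in those 3 hearts, MT-ND6 at 0.190% to 0.290% and MT-CYB at 0.488% to 3.33%. MT-ATP8, which overlaps MT-ATP6, reached 0.962% in 529 and at most 0.00445% in the 6 other high hearts. Both levels of MT-ATP6 occurred in every group. MT-CYB did not follow them throughout, since 476 of the others had 1.52% with MT-ATP6 at the lower level. MT-ATP8 was at most 0.00212% in the 14 others. The cause of these levels was not tested. With these 5 genes left out of the share, a recount chosen after seeing the data, the high hearts stood at 40.8% to 60.1% and remained the 7 highest, since 4X0357 came next at 36.4%. Only 4X0354 then dropped below 42%.

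**Figure D2:**
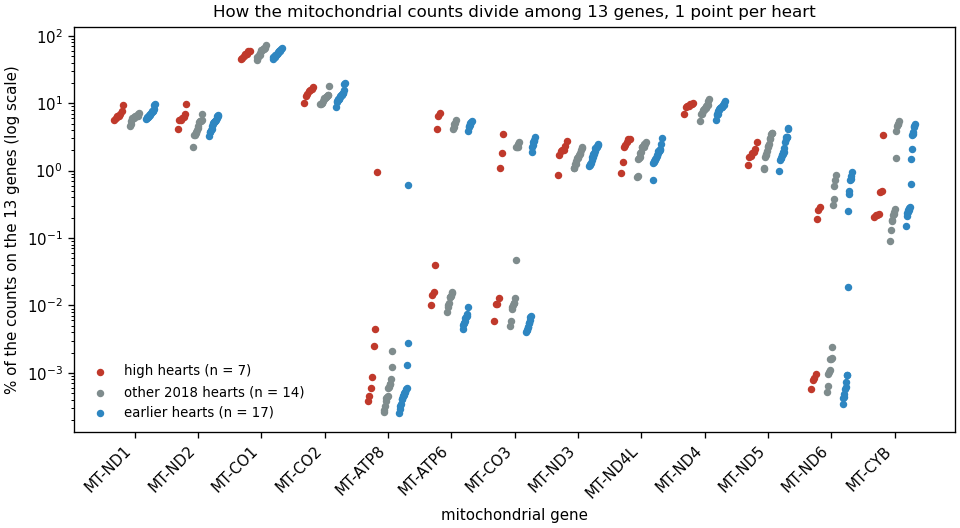
Percent of the counts on the 13 mitochondrial genes that each gene took (y axis, log scale), 1 point per heart in red for the 7 high hearts, grey for the 14 other hearts of 2018 and blue for the 17 earlier hearts. MT-ATP6 and MT-CO3 split into an upper and a lower level in all 3 groups, whereas MT-CO1 lies between 44.1% and 72.1% in every heart.

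Libraries of the high hearts were shallower, with 43892814 to 62669620 gene counts against 58513510 to 132478050, yet 14513 to 15637 nuclear genes had at least 10 counts (15051 to 16047 in the others). The total on exons orthologous between human and chimpanzee was 63.5% to 91.4% of the non-mitochondrial gene counts in the high hearts and 86.3% to 90.3% in the others. It was below every other heart in 6 of the 7, lowest in Little_R, and above every other heart in 529. Cardiomyocyte markers (8 of 8 in the table, none at 0) were present in all 38 hearts, but their summed level in CPM (counts per 1000000 non-mitochondrial counts) was 6906 in Little_R, 19674 in 495, 19917 in 537, 40312 in 558, 46138 in 529, 48397 in 4X0354 and 75214 in 4X0339. The others ranged from 46494 to 96532, so 5 of the 7 high hearts lay below all of them. In bulk tissue, fewer cells of a type and less RNA per cell cannot be told apart. The part of exon share, depth and cell makeup in the results that follow was not tested. RIN entered separate fits given below.

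The comparison of the high with the other hearts asked how nuclear genes differ once mitochondrial counts are set aside, so each library was scaled to its non-mitochondrial total. The top 10 genes held 13.1% to 33.6% of that total in the high hearts (median 22.9%) and 13.6% to 20.7% in the others (median 17.1%). A larger part on few genes lowers the CPM of the rest, and its effect on the calls was not tested. Of 15972 genes tested, 7732 (48.4%) were called by the quasi-likelihood test of edgeR at a Benjamini-Hochberg adjusted p below 0.05. Of all genes tested, 29% (4638) were higher and 19.4% (3094) were lower in the high hearts, and the median log2 fold change was 0.18. These shares are the background for the counts below. They differed with level: among genes of at least 105 CPM, the highest of 10 bins, 19.2% were higher and 38.9% lower, with a median of -0.32. Lists of highly expressed genes are to be read against that bin as well. The paper had already called 537 and Little_R outliers from the same technical batch, and here they were the 2 hearts farthest from the others on many lists. Without them, 6482 genes passed (39.9%, with 26.3% higher and 13.7% lower). Of the 7732, 5890 passed there too, all in the same direction. Groups that did not overlap at all were rarer: 555 genes (3.47%) were lower in all 7 high hearts than in any of the 14 others, and 58 (0.363%) were higher.

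In each of 9 described of the 10 genes that fell with the smallest p, all 7 high hearts lay below all 14 others. KLHL31 measured 1.98 to 6.55 CPM (median 4.39) in the 7 high hearts and 48.7 to 181 CPM (median 103) in the 14 others, a log2 fold change of -4.82 ± 0.34 SE, edgeR adjusted p = 8.5e-09. KLHL31 is a kelch-like protein of heart and skeletal muscle; by the fit it was 28.3-fold lower. Levels of PRICKLE1 were 3.45 to 6.05 CPM (median 4.42) in the high hearts against 19.8 to 43.7 CPM (median 31.6) in the others (log2 fold change -2.88 ± 0.20 SE, edgeR adjusted p = 8.5e-09). PRICKLE1 acts in planar cell polarity. For SLC8A1 the high hearts gave 6.17 to 19.5 CPM (median 9.97) and the other hearts 59.9 to 218 CPM (median 144), with a log2 fold change of -3.75 ± 0.32 SE, edgeR adjusted p = 8.3e-08. SLC8A1 is the sodium-calcium exchanger that clears calcium from heart muscle cells after each beat. CAMK2D measured 8.55 to 21.8 CPM (median 12.97) in the 7 high hearts and 40.3 to 122 CPM (median 76.4) in the 14 others, a log2 fold change of -2.63 ± 0.22 SE, edgeR adjusted p = 8.3e-08. CAMK2D is the main calcium/calmodulin-dependent kinase II of the heart. Levels of DBT were 1.94 to 7.39 CPM (median 4.08) in the high hearts against 14.4 to 31.3 CPM (median 26.3) in the others (log2 fold change -2.67 ± 0.22 SE, edgeR adjusted p = 8.3e-08). DBT is the core of the mitochondrial complex that breaks down branched-chain amino acids. For NCOA4 the high hearts gave 19.5 to 50.3 CPM (median 22.9) and the other hearts 91.4 to 307 CPM (median 166), with a log2 fold change of -2.83 ± 0.24 SE, edgeR adjusted p = 8.3e-08. NCOA4 carries ferritin to lysosomes and so frees iron. CTNNA3 measured 1.24 to 5.08 CPM (median 3.001) in the 7 high hearts and 15.7 to 35.3 CPM (median 21.9) in the 14 others, a log2 fold change of -2.97 ± 0.25 SE, edgeR adjusted p = 8.3e-08. CTNNA3 is a catenin of the intercalated disc that joins heart muscle cells. RBBP7, a histone-binding protein, and COMMD10 completed the 9, with log2 fold changes of -1.66 ± 0.14 and -1.71 ± 0.15 (SE; edgeR adjusted p = 8.3e-08 and 1.2e-07). This held also for 4X0339, whose score on the tricarboxylic acid cycle was nearest to the others.

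**Figure D3:**
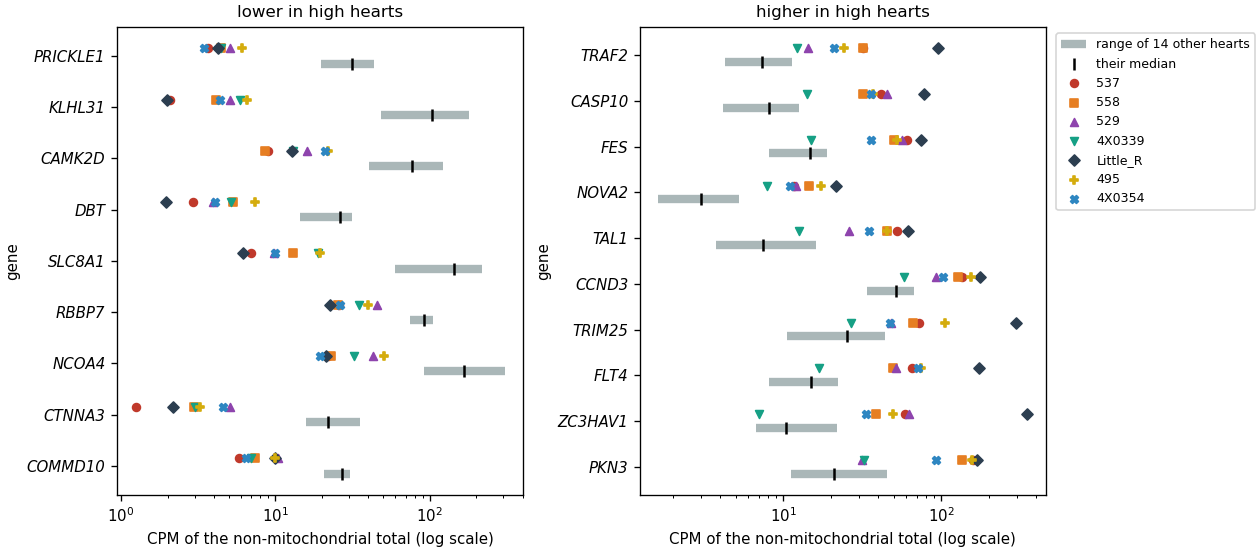
Levels (x axis, CPM of the non-mitochondrial total, log scale) of 9 of the 10 genes with the smallest p among those lower (left) and all 10 among those higher (right) in the high hearts. Symbols are the 7 high hearts, bars the range of the 14 other hearts and ticks their median; all symbols on the left lie below the bars, while on the right 4X0339 lies inside the bar in 7 of the 10 genes.

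Of the 10 genes that rose with the smallest p, 3 had every high heart above every other heart, and Little_R was highest in all 10. Levels of TRAF2 were 12.3 to 94.8 CPM (median 24.3) in the high hearts against 4.297 to 11.4 CPM (median 7.29) in the others (log2 fold change 2.41 ± 0.24 SE, edgeR adjusted p = 5.7e-07). TRAF2 is an adaptor of tumour necrosis factor receptors. For CASP10 the high hearts gave 14.1 to 78.2 CPM (median 37.02) and the other hearts 4.15 to 12.6 CPM (median 8.12), with a log2 fold change of 2.43 ± 0.25 SE, edgeR adjusted p = 6.5e-07. CASP10 is an initiator caspase. NOVA2 measured 7.93 to 21.7 CPM (median 12.1) in the 7 high hearts and 1.62 to 5.22 CPM (median 3.03) in the 14 others, a log2 fold change of 2.28 ± 0.24 SE, edgeR adjusted p = 8.8e-07. NOVA2 regulates splicing in neurons and endothelium. These are the 3 genes without overlap. Levels of FLT4 were 16.8 to 172 CPM (median 64.9) in the high hearts against 8.16 to 22.2 CPM (median 15.1) in the others (log2 fold change 2.48 ± 0.27 SE, edgeR adjusted p = 1.6e-06). FLT4 is the vascular endothelial growth factor receptor of lymphatic vessels, and 4X0339 at 16.8 CPM lay inside the range of the others. For TAL1 the high hearts gave 12.6 to 61.5 CPM (median 45.4) and the other hearts 3.78 to 16.2 CPM (median 7.45), with a log2 fold change of 2.60 ± 0.28 SE, edgeR adjusted p = 1.1e-06. TAL1 is a transcription factor of blood and endothelial development. ZC3HAV1 measured 7.03 to 351 CPM (median 49.4) in the 7 high hearts and 6.77 to 21.9 CPM (median 10.4) in the 14 others, a log2 fold change of 3.23 ± 0.36 SE, edgeR adjusted p = 1.7e-06. ZC3HAV1 encodes the zinc-finger antiviral protein, and it spanned 7.03 CPM in 4X0339 to 351 CPM in Little_R. Levels of TRIM25 were 26.9 to 299 CPM (median 66.7) in the high hearts against 10.6 to 44.3 CPM (median 25.5) in the others (log2 fold change 2.45 ± 0.27 SE, edgeR adjusted p = 1.5e-06). TRIM25 is the ubiquitin ligase that activates the RNA sensor RIG-I. The kinases FES and PKN3 rose by 2.05 ± 0.21 and 2.75 ± 0.31 and the cyclin CCND3 by 1.49 ± 0.16 (log2, SE; edgeR adjusted p at most 1.9e-06).

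Nuclear genes of the respiratory chain fell more often than they rose. Of 37 nuclear subunits of complex I, the entry of electrons into the chain, 0 rose, 22 fell and 15 did not pass. Their median log2 fold change was -0.72, against 0.18 over all genes and -0.32 over genes of at least 105 CPM. Of 25 subunits of complexes II to IV, 0 rose, 16 fell and 9 did not pass (median -0.77). Of 16 subunits of ATP synthase, 0 rose, 8 fell and 8 did not pass (median -0.59). Per heart, the list score of complex I (mean log2(CPM + 0.5) over its members, minus the mean of the 14 others) was -2.05 in Little_R, -1.64 in 537, -0.77 in 558, -0.63 in 495, -0.35 in 529, -0.11 in 4X0354 and 0.21 in 4X0339, and -0.36 to 0.22 in the others. Thus 4 of the 7 lay below every other heart, and 529, 4X0339 and 4X0354 lay among them. Without 537 and Little_R the counts for complex I were 0 higher and 14 lower, median -0.34, those for complexes II to IV 0 higher and 11 lower, median -0.40, and those for ATP synthase 0 higher and 5 lower, median -0.23. For NDUFS1 the high hearts gave 16.5 to 204 CPM (median 109.7) and the other hearts 254 to 624 CPM (median 454), with a log2 fold change of -2.28 ± 0.36 SE, edgeR adjusted p = 4.5e-05. NDUFS1 is an iron-sulfur subunit of the peripheral arm. SDHD measured 45.6 to 141 CPM (median 112) in the 7 high hearts and 151 to 367 CPM (median 259) in the 14 others, a log2 fold change of -1.52 ± 0.22 SE, edgeR adjusted p = 1.9e-05. SDHD anchors succinate dehydrogenase in the membrane. Levels of ATP5F1B were 543 to 2139.8 CPM (median 1073) in the high hearts against 2369.9 to 4165 CPM (median 3279.6) in the others (log2 fold change -1.51 ± 0.23 SE, edgeR adjusted p = 3.1e-05). ATP5F1B is the catalytic beta subunit of ATP synthase, and ATP5PB, of its peripheral stalk, fell by 2.25 ± 0.29 (log2, SE; edgeR adjusted p = 7.4e-06). The subunit NDUFA13 was not past the threshold (-0.56 ± 0.27 SE, edgeR adjusted p = 0.086), nor was UQCRB (-0.66 ± 0.31 SE, edgeR adjusted p = 0.086), whereas SDHA and NDUFV1 fell (-1.93 ± 0.36 and -1.29 ± 0.27, edgeR adjusted p = 2.1e-04 and 5.6e-04).

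Genes of pathways that feed the chain fell as well. All 19 genes listed for the tricarboxylic acid cycle and pyruvate dehydrogenase, cytosolic MDH1 among them, fell. Their log2 fold changes were -2.72 to -0.93, with a median of -1.35. Among all genes 19.4% were lower, and among genes of at least 105 CPM 38.9%. Their list score was -3.10 to -0.46 in the high hearts (median -1.27) and -0.37 to 0.23 in the others, without overlap, and 18 of the 19 fell without 537 and Little_R (median -0.99). For SUCLG2 the high hearts gave 44.2 to 79.5 CPM (median 64.7) and the other hearts 101.1 to 196 CPM (median 146), with a log2 fold change of -1.35 ± 0.15 SE, edgeR adjusted p = 2.1e-06. SUCLG2 is the GTP-forming subunit of succinyl-CoA ligase. MDH1, the cytosolic malate dehydrogenase of the malate shuttle, fell by 1.77 ± 0.35 and IDH2, the mitochondrial isocitrate dehydrogenase that makes NADPH, by 1.11 ± 0.39 (log2, SE; edgeR adjusted p = 3.7e-04 and 0.023). IDH2 did not pass without Little_R, at -0.77 (edgeR adjusted p = 0.064), or without 537 and Little_R (-0.60, edgeR adjusted p = 0.099). Fatty acid oxidation is the main fuel pathway of the adult heart, and its list also held CD36, LPL and FABP3, which are not enzymes of oxidation. Of its 23 genes, 0 rose, 17 fell and 6 did not pass (median -1.38). ACADM measured 5.91 to 68.2 CPM (median 39.7) in the 7 high hearts and 77.9 to 218 CPM (median 169) in the 14 others, a log2 fold change of -2.40 ± 0.36 SE, edgeR adjusted p = 3.3e-05. ACADM is the medium-chain acyl-CoA dehydrogenase. HADHB, of the trifunctional protein, and ACADVL, the very long-chain enzyme, fell by 1.81 ± 0.40 and 0.93 ± 0.35 (log2, SE; edgeR adjusted p = 8.5e-04 and 0.031), the latter not past the threshold without 537 (edgeR adjusted p = 0.054), without 558 (0.087), without Little_R (0.11) or without 537 and Little_R (-0.46, edgeR adjusted p = 0.19).

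Nuclear genes that make, mature and translate mitochondrial RNA did not rise as a group either. Of 17 genes of mitochondrial DNA replication and transcription, 2 rose, 5 fell and 10 did not pass (median -0.26). POLRMT, the mitochondrial RNA polymerase, measured 35.99 to 78.8 CPM (median 48.0) in the high hearts and 38.9 to 74.4 CPM (median 57.5) in the others (-0.13 ± 0.18 SE, edgeR adjusted p = 0.57). POLG2, the accessory subunit of the mitochondrial DNA polymerase, was one of 2 that rose (1.68 ± 0.22 SE, edgeR adjusted p = 7.1e-06), and SSBP1, the single-strand binding protein, fell (-0.52 ± 0.16 SE, edgeR adjusted p = 0.010). Of 16 tested genes of mitochondrial RNA processing and stability, 0 rose, 10 fell and 6 did not pass (median -0.56). Levels of LRPPRC were 60.3 to 186 CPM (median 143) in the high hearts against 193 to 364 CPM (median 324) in the others (log2 fold change -1.38 ± 0.19 SE, edgeR adjusted p = 1.7e-05). LRPPRC binds and stabilises mitochondrial messenger RNA. For TRMT10C the high hearts gave 9.13 to 19.3 CPM (median 12.1) and the other hearts 22.02 to 44.4 CPM (median 31.2), with a log2 fold change of -1.33 ± 0.18 SE, edgeR adjusted p = 1.0e-05. TRMT10C is a subunit of the nuclease that cuts the long primary transcript at its transfer RNAs. GRSF1, an RNA-binding protein of the granules where these transcripts mature, fell by 0.62 ± 0.18 (log2, SE; edgeR adjusted p = 0.0080). Without 537 and Little_R neither passed, at -0.42 (edgeR adjusted p = 0.059) for SSBP1 and -0.34 (edgeR adjusted p = 0.056) for GRSF1. Of 76 proteins of the mitochondrial ribosome, 3 rose, 46 fell and 27 did not pass (median -0.58), and 1 higher and 30 lower, median -0.33 without 537 and Little_R. MRPL30 measured 20.8 to 46.5 CPM (median 31.7) against 58.2 to 80.0 CPM (median 71.2) (-1.16 ± 0.15 SE, edgeR adjusted p = 6.1e-06), while MRPL41 and MRPL12, the members with the highest counts, did not pass (-0.14 ± 0.31 SE, edgeR adjusted p = 0.74, and -0.19 ± 0.28 SE, edgeR adjusted p = 0.58).

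Among 12 regulators of mitochondrial biogenesis, 4 rose, 3 fell and 5 did not pass (median -0.25). PPARA measured 1.32 to 4.94 CPM (median 2.66) in the 7 high hearts and 6.04 to 15.8 CPM (median 12.02) in the 14 others, a log2 fold change of -2.09 ± 0.24 SE, edgeR adjusted p = 2.4e-06. PPARA is the nuclear receptor that drives fatty acid oxidation genes. Neither PPARGC1A nor ESRRA passed: PPARGC1A, the coactivator of mitochondrial biogenesis, spanned 12.3 CPM in Little_R to 229.7 CPM in 529 (-1.15 ± 0.57 SE, edgeR adjusted p = 0.098), and ESRRA gave -0.25 ± 0.26 SE, edgeR adjusted p = 0.43. Of 16 genes of mitochondrial quality control and dynamics, 3 rose, 11 fell and 2 did not pass (median -0.69), and without 537 and Little_R 0 rose and 8 fell. MFN2, which fuses outer membranes, fell by 1.43 ± 0.28 (log2, SE; edgeR adjusted p = 3.0e-04). HSPD1, the mitochondrial chaperonin, was set by 1 heart, with 4887 CPM in Little_R and 181 to 572 CPM in the 6 other high hearts, against 115 to 478 CPM (median 208) in the others (1.98 ± 0.44 SE, edgeR adjusted p = 0.0011). Without Little_R alone it gave 0.38 (edgeR adjusted p = 0.33), and without 537 and Little_R 0.46 with an edgeR adjusted p of 0.26. Of 18 antioxidant enzymes, 0 rose, 5 fell and 13 did not pass (median -0.34). PRDX3, the peroxiredoxin of mitochondria, measured 33.2 to 192 CPM (median 81.7) against 208 to 411 CPM (median 298) (-1.77 ± 0.30 SE, edgeR adjusted p = 8.5e-05), PRDX2 fell by 1.16 ± 0.30 (edgeR adjusted p = 0.0033), and cytosolic SOD1 gave 0.15 ± 0.21 SE, edgeR adjusted p = 0.58.

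**Figure D4:**
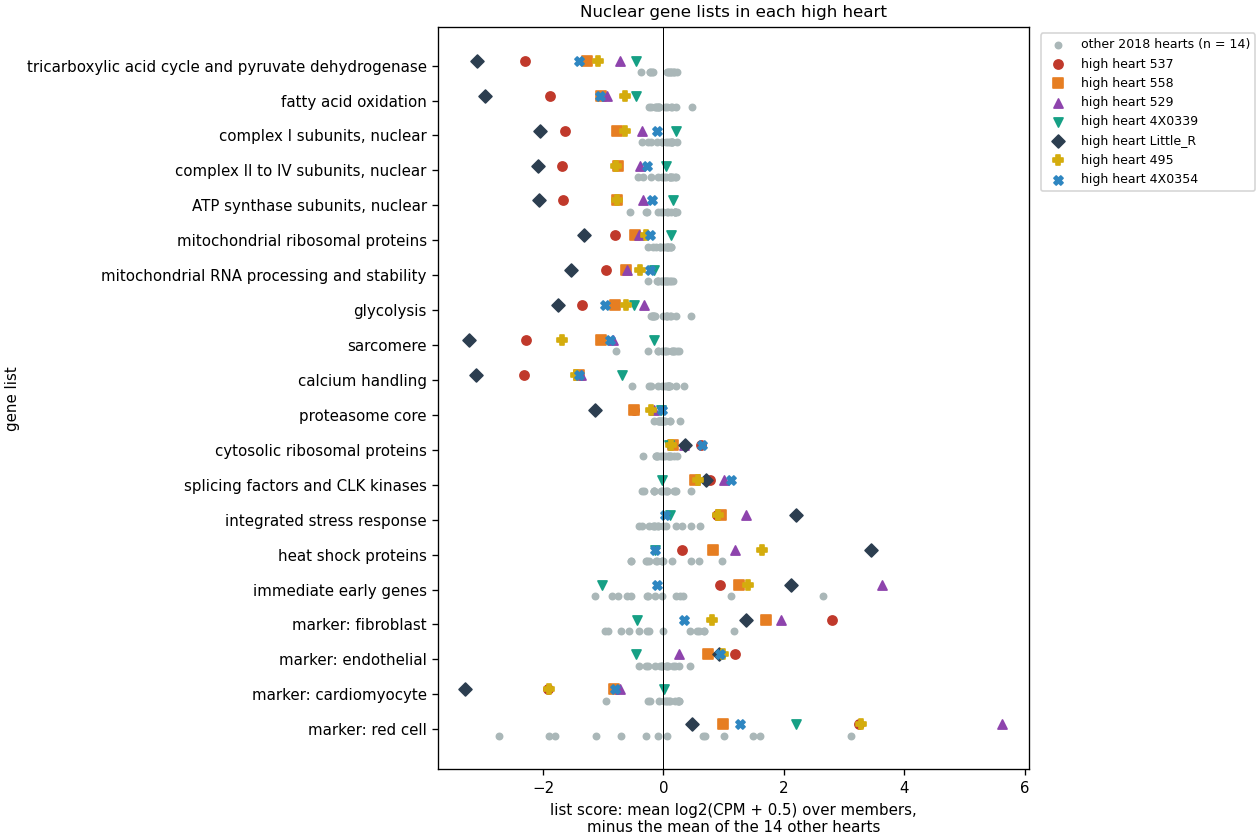
List scores (x axis: mean log2(CPM + 0.5) over the tested members of a list, minus the mean of the 14 other hearts) for 20 gene lists (y axis), with a symbol for each of the 7 high hearts and grey points for the 14 other hearts. Scores of the tricarboxylic acid cycle lie between -3.10 and -0.46 in the high hearts, below all grey points, with Little_R and 537 lowest and 4X0339 nearest to the others.

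Most genes of contraction on the lists fell. Of 20 sarcomere genes, 0 rose, 15 fell and 5 did not pass (median -1.48), and 0 higher and 9 lower, median -1.05 without 537 and Little_R. Levels of MYH7 were 1418 to 17304 CPM (median 11927) in the high hearts against 19181 to 45726 CPM (median 31482) in the others (log2 fold change -1.85 ± 0.37 SE, edgeR adjusted p = 3.7e-04). MYH7 is the slow beta myosin heavy chain, and For MYOM1 the high hearts gave 50.0 to 337 CPM (median 226) and the other hearts 348 to 1825 CPM (median 1072), with a log2 fold change of -2.68 ± 0.36 SE, edgeR adjusted p = 9.8e-06 for MYOM1, which crosslinks myosin at the M band. TNNT2, the cardiac troponin T, fell by 0.80 ± 0.32 (log2, SE; edgeR adjusted p = 0.046), with 20842 CPM in 4X0339 above all the others. Of 10 calcium handling genes, 0 rose, 8 fell and 2 did not pass (median -1.83), and 0 higher and 8 lower, median -1.40 without 537 and Little_R. RYR2 measured 105 to 762 CPM (median 387) in the 7 high hearts and 793 to 3189 CPM (median 2132) in the 14 others, a log2 fold change of -2.60 ± 0.35 SE, edgeR adjusted p = 9.9e-06. RYR2 is the calcium release channel. ATP2A2, the pump that refills the store, and CASQ2, which binds calcium inside it, fell by 1.91 ± 0.39 and 1.76 ± 0.35 (log2, SE; edgeR adjusted p = 4.8e-04 and 4.0e-04). Of 4 genes of myoglobin and creatine kinase, 0 rose, 3 fell and 1 did not pass, and MB, which stores oxygen in muscle, measured 2142 to 19555 CPM (median 8094) against 13026 to 26666 CPM (median 18938) (-1.42 ± 0.34 SE, edgeR adjusted p = 0.0018). CKM, the muscle creatine kinase, gave -0.95 ± 0.37 SE, edgeR adjusted p = 0.039, and -0.54 with an edgeR adjusted p of 0.20 without 537 and Little_R. Of 16 tested genes of glycolysis, 0 rose, 10 fell and 6 did not pass (median -0.75): PFKM, the muscle phosphofructokinase, and ALDOA fell by 2.32 ± 0.35 and 0.84 ± 0.27 (edgeR adjusted p = 3.7e-05 and 0.015), and GAPDH gave -0.62 ± 0.29 SE, edgeR adjusted p = 0.079. TNNT2 was not past the threshold on leaving out any of 495, 4X0354, 537, 558, Little_R or 4X0357, with adjusted p of 0.055 to 0.14 by edgeR, CKM on leaving out any of 495, 4X0354, 537 or Little_R (0.059 to 0.11), and ALDOA without Little_R (0.056). Without 537 and Little_R, TNNT2 gave -0.39 (edgeR adjusted p = 0.23) and ALDOA -0.48 (edgeR adjusted p = 0.075). Cardiomyocyte markers, which share MYH7, MYL2, MYBPC3, RYR2 and the troponins with these lists, were below every other heart in 5 of the 7 as given above, and their part in these counts was not tested.

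Chamber genes differed between single hearts. Of 7 ventricular genes, 0 rose, 4 fell and 3 did not pass (median -0.80), and FHL2, a LIM protein of the sarcomere, fell by 2.15 ± 0.37 (log2, SE; edgeR adjusted p = 1.2e-04). MYL2, the ventricular myosin light chain, was 573 CPM in Little_R, 737 CPM in 495 and 3394 to 7658 CPM in the 5 other high hearts, against 3624 to 18373 CPM (median 9580.2) in the others (-1.58 ± 0.49 SE, edgeR adjusted p = 0.011). Of 8 tested atrial genes, 1 rose, 1 fell and 6 did not pass. NPPA, the atrial natriuretic peptide gene, was 12685 CPM in 4X0354 and 5.16 to 755 CPM in the 6 other high hearts, against 1.36 to 2722 CPM (median 13.8) in the others (2.42 ± 1.34 SE, edgeR adjusted p = 0.14). MYL7, the atrial light chain, gave -0.52 ± 0.82 SE, edgeR adjusted p = 0.62, and NR2F2, a transcription factor of atria and veins, rose (1.505 ± 0.26 SE, edgeR adjusted p = 1.2e-04). The chamber sampled was not given by the labels.

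Stress genes rose more often than they fell. Of 13 tested genes of the integrated stress response, 10 rose, 0 fell and 3 did not pass (median 1.47), and 7 higher and 0 lower, median 1.02 without 537 and Little_R. DDIT3 measured 38.7 to 101.1 CPM (median 67.4) in the 7 high hearts and 24.5 to 53.4 CPM (median 31.7) in the 14 others, a log2 fold change of 1.19 ± 0.19 SE, edgeR adjusted p = 5.1e-05. DDIT3 is the transcription factor CHOP. Its upstream factor ATF4 gave 0.53 ± 0.23 SE, edgeR adjusted p = 0.065, and ATF3 ranged from 9.50 CPM in 4X0339 to 612 CPM in 529 (1.92 ± 0.84 SE, edgeR adjusted p = 0.062). Of 12 tested heat shock proteins, 8 rose, 1 fell and 3 did not pass (median 1.90). HSPA1B, the inducible HSP70, was 785 CPM in 4X0354, 963 in 537, 1543 in 4X0339, 3265 in 558, 3687 in 529, 6911 in 495 and 42235 in Little_R, against 215 to 1759 CPM (median 310.3) in the others (3.96 ± 0.55 SE, edgeR adjusted p = 1.4e-05). Its reads can be shared with the near-identical copy HSPA1A. Without 537 and Little_R, 5 heat shock genes rose and the median was 0.58. The muscle chaperone HSPB7 fell (-1.06 ± 0.34 SE, edgeR adjusted p = 0.014), and CRYAB did not pass (-0.28 ± 0.23 SE, edgeR adjusted p = 0.33). HSPB7 gave -0.63 (edgeR adjusted p = 0.071) without 537 and Little_R. Of 20 tested immediate early genes, which switch on within minutes of a stimulus, 10 rose, 0 fell and 10 did not pass (median 1.18). MYC spanned 1.0002 CPM in 4X0339 to 125 CPM in Little_R, against 1.79 to 24.2 CPM (median 6.16) in the others (2.61 ± 0.57 SE, edgeR adjusted p = 8.4e-04). KLF2, a flow-sensitive factor of endothelium, rose (1.41 ± 0.32 SE, edgeR adjusted p = 0.0012), and NR4A1 did not pass (1.15 ± 0.76 SE, edgeR adjusted p = 0.22).

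Of 25 splicing factors and CLK kinases, 18 rose, 1 fell and 6 did not pass (median 0.77), and 18 higher and 1 lower, median 0.79 without 537 and Little_R. Their list score was -0.02 to 1.12 in the high hearts (median 0.71) and -0.35 to 0.46 in the others, above all others in 6 of the 7 high hearts. Levels of CLK1 were 109.9 to 661 CPM (median 352) in the high hearts against 55.7 to 176 CPM (median 95.6) in the others (log2 fold change 2.03 ± 0.30 SE, edgeR adjusted p = 2.4e-05). CLK1 phosphorylates splicing factors, and its transcript is stored partly unspliced in the nucleus. DDX5, an RNA helicase of the spliceosome, rose (0.68 ± 0.19 SE, edgeR adjusted p = 0.0060), and HNRNPA2B1 gave 0.24 ± 0.17 SE, edgeR adjusted p = 0.24. Of 91 tested proteins of the cytosolic ribosome, 44 rose, 4 fell and 43 did not pass (median 0.43), whereas the median over the mitochondrial ribosome was below 0. Reads of these genes can be shared with their many near-identical copies. For RPS19 the high hearts gave 95.9 to 205 CPM (median 149) and the other hearts 46.9 to 95.3 CPM (median 62.0), with a log2 fold change of 1.29 ± 0.16 SE, edgeR adjusted p = 5.9e-06. RPLP1 gave 0.64 ± 0.18 SE, edgeR adjusted p = 0.0052 and RPS3A 0.04 ± 0.20 SE, edgeR adjusted p = 0.87. Of 14 subunits of the proteasome core, 0 rose, 10 fell and 4 did not pass (median -0.42), with 0 higher and 3 lower, median -0.25 without 537 and Little_R. PSMA2 fell by 0.82 ± 0.15, PSMA4 by 0.57 ± 0.16 and PSMA7 by 0.40 ± 0.14 (log2, SE; edgeR adjusted p = 1.6e-04, 0.0054 and 0.020). Of 15 hypoxia genes, 7 rose, 2 fell and 6 did not pass (median 0.46): NDRG1 rose (1.80 ± 0.32 SE, edgeR adjusted p = 1.3e-04), BNIP3, a mitophagy receptor, fell (-1.18 ± 0.31 SE, edgeR adjusted p = 0.0041), and VEGFA gave 0.46 ± 0.32 SE, edgeR adjusted p = 0.24. Of 14 tested interferon-stimulated genes, 4 rose, 1 fell and 9 did not pass, among them IFI44L (1.51 ± 0.39 SE, edgeR adjusted p = 0.0031), while IFI6 did not pass (1.005 ± 0.44 SE, edgeR adjusted p = 0.061). Of 23 tested genes with histone symbols, 4 rose, 7 fell and 12 did not pass (median -0.42). H2BC21 fell by 2.53 ± 0.30 (edgeR adjusted p = 3.2e-06), H1-10, a linker histone that is not tied to replication, rose (0.72 ± 0.27 SE, edgeR adjusted p = 0.030), and H1-2 gave -0.51 ± 0.29 SE, edgeR adjusted p = 0.16. Leaving out 1 high heart ended the call of PSMA7 (558 or Little_R; edgeR adjusted p 0.075 and 0.077) and H1-10 (537 or 558; 0.080 and 0.14). PSMA7 gave -0.26 (edgeR adjusted p = 0.13) without 537 and Little_R.

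Most fibroblast and endothelial markers rose and most cardiomyocyte markers fell, though not in the same hearts throughout. Of 8 cardiomyocyte markers, 0 rose, 6 fell and 2 did not pass (median -1.29). Of 10 fibroblast markers, 8 rose, 0 fell and 2 did not pass, and their sum was 903 to 9137 CPM in the high hearts (median 4397) and 742 to 2838 CPM in the others (median 1356). It exceeded every other heart in 5 of the 7 high hearts, and was 903 CPM in 4X0339 and 1403 CPM in 4X0354. DCN, a proteoglycan of the matrix, gave 1.87 ± 0.38 SE, edgeR adjusted p = 4.2e-04, PDGFRA 1.85 ± 0.35 SE, edgeR adjusted p = 2.4e-04 and FBLN1 1.97 ± 0.44 SE, edgeR adjusted p = 0.0010. Of 7 tested endothelial markers, 6 rose, 0 fell and 1 did not pass, with a sum of 727 to 2411 CPM in the high hearts (median 1793) and 766 to 1305 CPM in the others (median 1064). This sum lay above every other heart in 537 at 2411 CPM, 495 at 2313, 4X0354 at 2175, Little_R at 1793 and 558 at 1663, but not in 529 at 1042, inside their range, or 4X0339 at 727, below all of them. By contrast 529 lay below every other heart in the cardiomyocyte sum, and 4X0354 did not. EMCN gave 0.94 ± 0.20 SE, edgeR adjusted p = 8.5e-04, VWF 0.86 ± 0.26 SE, edgeR adjusted p = 0.0088 and PECAM1 0.80 ± 0.26 SE, edgeR adjusted p = 0.015. Of 8 markers of smooth muscle and pericytes, 2 rose, 1 fell and 5 did not pass, with a sum of 386 to 2031 CPM in the high hearts (median 1201) and 543 to 1674 CPM in the others (median 675), PDGFRB at 1.21 ± 0.31 SE, edgeR adjusted p = 0.0027 and TAGLN at 1.11 ± 0.40 SE, edgeR adjusted p = 0.027. Of the 4 mesothelial markers tested, 2 rose, 0 fell and 2 did not pass, with a sum of 8.57 to 106 CPM in the high hearts (median 20.5) and 5.57 to 30.5 CPM in the others (median 8.67), the highest in Little_R. WT1 gave 1.90 ± 0.33 SE, edgeR adjusted p = 1.0e-04 and KRT19 1.64 ± 0.50 SE, edgeR adjusted p = 0.0098, the latter 0.51 with an edgeR adjusted p of 0.48 without 537 and Little_R. Of 6 Schwann cell markers, 1 rose, 0 fell and 5 did not pass, with a sum of 53.6 to 331 CPM in the high hearts (median 135) and 66.7 to 426 CPM in the others (median 214), CDH19 at 1.09 ± 0.42 SE, edgeR adjusted p = 0.035 and S100B at -0.91 ± 0.65 SE, edgeR adjusted p = 0.25. Of 5 tested adipocyte markers, 0 rose, 2 fell and 3 did not pass, with a sum of 273 to 1338 CPM in the high hearts (median 599.8) and 389 to 1304 CPM in the others (median 638), PLIN4 at -1.80 ± 0.43 SE, edgeR adjusted p = 0.0017 and FABP4 at 0.77 ± 0.38 SE, edgeR adjusted p = 0.10. Leaving out 1 high heart ended the call of CDH19 (495, 537 or 558; edgeR adjusted p 0.069 to 0.13), TAGLN (537, 558 or Little_R; 0.051 to 0.068), PECAM1 (558; 0.0501) and KRT19 (Little_R; 0.42). TAGLN gave 0.91 (edgeR adjusted p = 0.13) without 537 and Little_R.

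Of the blood and immune marker sums, those of red cells, neutrophils, T and NK cells, and B and plasma cells were highest in 529 among the 21 hearts. Of 3 tested red cell markers, 2 rose, 0 fell and 1 did not pass, and the sum of the 7 in the table was 8182 CPM in 529, 1429 in 537, 1426 in 495, 806 in 4X0339 and 263 to 354.3 in the other 3, against 12.1 to 1021 CPM in the others. HBB, beta globin, gave 3.06 ± 1.19 SE, edgeR adjusted p = 0.038, and HBA2, which shares reads with HBA1, 3.40 ± 1.33 SE, edgeR adjusted p = 0.038. Of 10 T and NK cell markers, 2 rose, 0 fell and 8 did not pass, with a sum of 247 CPM in 529 and 5.83 to 97.5 CPM in the 6 other high hearts. IL7R gave 2.52 ± 0.68 SE, edgeR adjusted p = 0.0047, CD8A 1.51 ± 0.60 SE, edgeR adjusted p = 0.042 and PRF1 1.07 ± 0.77 SE, edgeR adjusted p = 0.25. Of 6 tested neutrophil markers, 1 rose, 0 fell and 5 did not pass (CSF3R, 1.94 ± 0.75 SE, edgeR adjusted p = 0.038), and S100A8 and S100A9 gave 2.49 ± 1.19 SE, edgeR adjusted p = 0.088, and 1.98 ± 0.998 SE, edgeR adjusted p = 0.10. The 6 markers of B and plasma cells had a sum of 768 CPM in 529 and at most 60.5 CPM in the 6 other high hearts. JCHAIN gave 1.91 ± 1.82 SE, edgeR adjusted p = 0.39 and MZB1 2.02 ± 1.05 SE, edgeR adjusted p = 0.12. Of 9 macrophage markers, 1 rose, 0 fell and 8 did not pass (CD68, 1.39 ± 0.34 SE, edgeR adjusted p = 0.0022), and C1QA gave 0.91 ± 0.63 SE, edgeR adjusted p = 0.24. Without 529 these calls were lost for HBB at 1.94 (edgeR adjusted p = 0.075), HBA2 at 2.32 (edgeR adjusted p = 0.069), CSF3R at 1.03 (edgeR adjusted p = 0.11) and CD8A at 0.81 (edgeR adjusted p = 0.14). The call of IL7R was lost without Little_R, at 2.24 (edgeR adjusted p = 0.052), and that of CD8A also without 4X0354 at 1.46 (edgeR adjusted p = 0.056) or 558 at 1.62 (edgeR adjusted p = 0.082). Without 537 and Little_R, however, 7 T and NK cell markers rose and 0 fell (median 2.12). In that fit 2 neutrophil markers and 2 markers of B and plasma cells rose, and 0 of either fell. Among females only, with 558 and Little_R as the high hearts, a fit added after seeing the data, the list medians turned to -0.14 for red cell, -0.80 for neutrophil, -0.88 for macrophage, -0.11 for T and NK cell and -0.29 for B and plasma cell markers. There HBA2 gave -0.02 (edgeR adjusted p = 0.99), HBB 0.05 (edgeR adjusted p = 0.98), CSF3R 0.06 (edgeR adjusted p = 0.96), CD8A 0.43 (edgeR adjusted p = 0.61) and CD68 0.95 (edgeR adjusted p = 0.074), while IL7R still passed at 2.26 (edgeR adjusted p = 0.025). The sums of neutrophil and macrophage markers were 16.8 to 278 CPM in the high hearts (median 47.6) and 4.32 to 203 CPM in the others (median 18.1), and 43.7 to 403 CPM in the high hearts (median 108) and 34.4 to 237 CPM in the others (median 85.8), with overlap in both.

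Because the high hearts lay at both ends of the RIN scale, the comparison was repeated with RIN as a term and within each stratum. With sex and RIN as terms, 7834 of 15972 genes (49%) passed, 4627 higher and 3207 lower. Among hearts with RIN above 5 (3 high, 8 others), 7461 of 16351 genes (45.6%) passed, 24.7% higher and 20.9% lower. Among hearts with RIN of 5 or below (4 high, 6 others), 13 of 15679 (0.0829%) passed, all 13 lower, and 2624 had an unadjusted p under 0.05. In that stratum all 4 high hearts were male and only 1 of the others was, so sex and share could hardly be separated. Without the sex term, a fit added after seeing the data, 734 genes passed there (4.68%), 359 higher (2.29%) and 375 lower (2.39%). The difference between the strata was tested by an interaction, which no gene of 15972 (0) passed by edgeR, with 1456 at an unadjusted p under 0.05. Without 537 and Little_R, which are 2 of the 3 high hearts above RIN 5, 0 passed and 288 had an unadjusted p under 0.05. A larger effect in one stratum was thus not shown for any single gene. The score of 558, the third high heart there, was -1.27 for the tricarboxylic acid cycle, -0.77 for complex I and -1.41 for calcium handling. Of the lists, the tricarboxylic acid cycle had -1.89 above RIN 5 (0 higher, 19 lower) and -0.95 at RIN 5 or below (0 higher, 0 lower), complex I -1.32 above RIN 5 (0 higher, 33 lower) and -0.31 at RIN 5 or below (0 higher, 0 lower), and calcium handling -2.47 above RIN 5 (0 higher, 8 lower) and -1.46 at RIN 5 or below (0 higher, 1 lower). Splicing factors and CLK kinases had 0.60 above RIN 5 (14 higher, 1 lower) and 1.04 at RIN 5 or below (0 higher, 0 lower), and immediate early genes 1.46 above RIN 5 (6 higher, 0 lower) and 3.25 at RIN 5 or below (0 higher, 0 lower). These values at RIN 5 or below used the sex term and so lean on the 1 male among the others there. Without that term the tricarboxylic acid cycle had -0.75 (0 higher, 6 lower) and complex I -0.17 (0 higher, 1 lower). Calcium handling then had -1.09 (0 higher, 5 lower), splicing factors and CLK kinases 0.89 (4 higher, 0 lower) and immediate early genes 2.14 (9 higher, 0 lower). Of the genes lower with the smallest p, KLHL31 gave -5.40 above RIN 5 and -5.04 at RIN 5 or below (edgeR adjusted p = 1.7e-05 and 0.0026), and PRICKLE1 -2.99 and -3.20 (edgeR adjusted p = 4.5e-05 and 0.016). SLC8A1, CAMK2D and NCOA4 also passed at RIN 5 or below. CTNNA3, DBT, COMMD10 and RBBP7 did not (edgeR adjusted p = 0.055, 0.062, 0.15 and 0.19). None of the 10 genes higher with the smallest p passed there, the lowest being TRAF2 (edgeR adjusted p = 0.24).

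The 17 earlier hearts, which the rule did not use, showed how nuclear genes go with mitochondrial share at 17.2% to 34.98%. A slope on the share, per 10 percentage points, passed for 265 of 16294 genes (1.63%, edgeR's quasi-likelihood test), 18 higher (0.11%) and 247 lower (1.52%) with rising share. With TMM scaling the counts were 18 and 42. Of the 246 lower genes tested in both fits, 149 were higher in the high hearts of 2018 and 7 were lower, against 29% and 19.4% among all genes. Of the 18 higher genes, 10 were lower in the high hearts. Over 15681 genes, the slope in the earlier hearts and the log2 fold change of the high hearts had Pearson's r = -0.439 and Spearman's rho = -0.46 across genes. The 2 fits share no sample, and genes are not independent replicates. Most of the called genes shared by the 2 fits thus had opposite signs.

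Over the 21 hearts of 2018, where the high hearts enter the slope, 6579 genes (41.2%) passed, 23.3% higher and 17.9% lower. List medians of the slope were 0.40 per 10 percentage points in the earlier hearts and -0.32 over the 21 hearts of 2018 for complex I, 0.45 per 10 percentage points in the earlier hearts and -0.36 over the 21 hearts of 2018 for complexes II to IV, and 0.46 per 10 percentage points in the earlier hearts and -0.24 over the 21 hearts of 2018 for ATP synthase. In the earlier hearts, 3 subunits of complex I and 2 of complexes II to IV rose with share and none of either fell. The tricarboxylic acid cycle had 0.34 per 10 percentage points in the earlier hearts and -0.56 over the 21 hearts of 2018, and fatty acid oxidation 0.31 per 10 percentage points in the earlier hearts and -0.55 over the 21 hearts of 2018. Heat shock proteins had -0.77 per 10 percentage points in the earlier hearts and 0.76 over the 21 hearts of 2018, with 4 members lower in the earlier hearts, and the integrated stress response -0.58 per 10 percentage points in the earlier hearts and 0.66 over the 21 hearts of 2018. The difference of the slopes was tested in 1 fit over all 38 hearts, added after seeing the data. It passed for 3783 of 17140 genes (22.1%), 2836 (16.5%) with a higher slope in 2018 and 947 (5.53%) with a lower one. Among these were 0 members higher and 28 lower for complex I, 0 members higher and 22 lower for complexes II to IV, 0 members higher and 15 lower for the tricarboxylic acid cycle, and 9 members higher and 0 lower for the heat shock proteins. For NDUFS1 the slope was 0.46 ± 0.18 in the earlier hearts and -0.95 ± 0.17 in 2018, a difference of -1.39 ± 0.32 (edgeR adjusted p = 0.0035). For TRAF2 it was -0.94 ± 0.17 in the earlier hearts and 0.99 ± 0.15 in 2018 (difference 1.90 ± 0.31, edgeR adjusted p = 5.4e-04). Extraction year and the range of share cannot be told apart in this test, because no earlier heart exceeded 34.98%. Within the 14 other hearts of 2018 alone, at 21.5% to 40.04%, the slope passed for 0 of 16714 genes in edgeR's test, with 1605 at an unadjusted p under 0.05, and its list median was 0.19 for complex I and -0.14 for the tricarboxylic acid cycle.

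**Figure D5:**
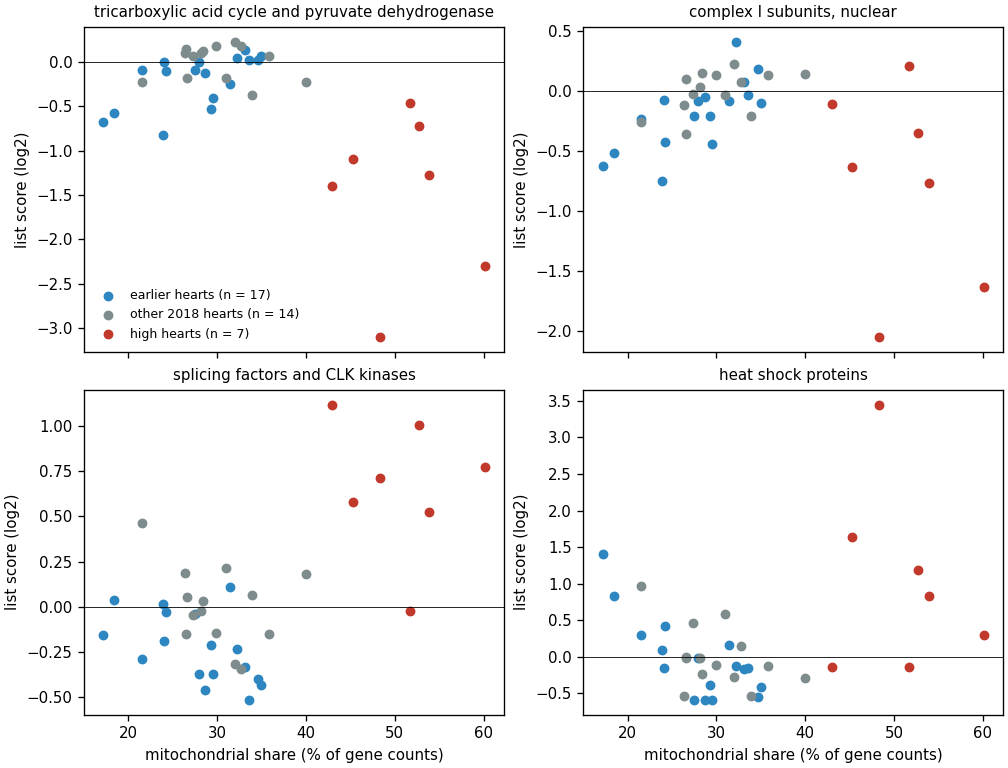
List scores (y axis, log2) of 4 nuclear gene lists against mitochondrial share (x axis, percent of gene counts) for the 7 high hearts in red, the 14 other hearts of 2018 in grey and the 17 earlier hearts in blue. The score of complex I ranges from -2.05 to 0.21 in the high hearts. The lowest scores of the tricarboxylic acid cycle belong to Little_R and 537.

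The share of higher and lower genes also differed with the level and the size of genes. Among genes in the lowest of 10 bins of mean level over the 21 hearts (at most 0.587 CPM), the median log2 fold change was 0.78, with 29.5% higher and 5.82% lower. In the highest bin (at least 105 CPM) it was -0.32, with 19.2% higher and 38.9% lower. Gene size was read from the orthologous exon table, in its own coordinates on Pan_tro_3.0, with the comparison fitted on its counts, where the median over all genes was 0.48. In the shortest of 5 bins of the span from first to last exon (up to 4.34 kb), the median was 0.87 and 6.9005% were lower. In the bin of the longest span (from 85.8 kb), it was 0.29 and 17.2% were lower. By exon length the share of lower genes went from 10.49% in the shortest of 5 bins to 13.1% in the longest. The 1251 tested genes that span over 200 kb took 5.30% to 8.44% of exon counts in the high hearts (median 6.02%) and 6.71% to 9.09% in the others (median 8.11%). All high hearts but 4X0354 lay below every other heart. These splits are descriptions across genes, without a test.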

How the data were processed

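Post-mortem heart tissue of 38 chimpanzees, 1 library per animal, was measured by poly(A) RNA sequencing. The authors aligned reads with STAR (2.6.1b in the submitters' processing notes) to Pan_tro_3.0 and deposited gene counts from STAR, which were the main data here. They also deposited counts over orthologous exons (featureCounts), with exon lengths and coordinates, and a matrix of 13545 genes in 37 hearts whose normalized values were treated as a score. Columns of per-sample values from other samples in these tables (52) were not used.

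The 13 mitochondrial genes were removed and the non-mitochondrial total was the library size, with normalization factors of 1. Genes passing edgeR's filterByExpr were tested with edgeR 4.0.16 (quasi-likelihood, sex as covariate, Benjamini-Hochberg adjustment over all genes, R 4.3.3), called at an adjusted p below 0.05. The same test gave slopes per 10 percentage points of share, their difference between extraction years and the interaction with RIN stratum. CPM are counts per 1000000 of the non-mitochondrial total. List scores used a pseudocount of 0.5 CPM. Single mitochondrial genes were compared by exact permutation tests (numpy 2.4.6, scipy 1.17.1), and tables were handled with pandas 2.3.3 and the R package data.table (version 1.17.8) and drawn with matplotlib 3.10.9. Alternatives used DESeq2 1.42.0, limma 3.58.1, TMM scaling, other filters and covariates, subsets of hearts and the other deposited tables. Counting depth was 21513983 to 92850946 non-mitochondrial counts in the 21 hearts of 2018.

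The hearts were selected on their mitochondrial share, and the members, lists and tests were chosen with earlier results of these data known. Genes named were, in each direction, the 10 with the smallest p that have a symbol, and from each list the member with the smallest p and the 2 with the highest mean level; 3 of these are not reported here. The separate levels of MT-ATP6, and the values of MT-CO3, MT-ND6, MT-CYB and MT-ATP8 described beside them, were noticed after the values were seen. The tests were tried on simulated counts with 200 altered genes each. For high against other hearts (15792 genes, 2-fold changes) 129 were recovered beside 6 false calls, for the slope in the earlier hearts (16171 genes, 2-fold) 136 beside 9, and for the interaction (15773 genes, 4-fold) 117 beside 6. On many gene lists, however, the scores of the high hearts spread more widely than those of the other hearts. A match of the simulated counts to that wider spread was not tested. The simulated false calls therefore give no rate of false calls for the real high hearts.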

Additional observations from a re-analysis of the deposited data

Results flagged for a closer look

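In 173 sets of the 7 high hearts (mitochondrial gene percentages, list scores and CPM of named genes), 13 had a highest or lowest heart set far from its nearest neighbour relative to the range of the 7. Chance does this in about 1 set in 20. Heart 529 stood apart for MT-ATP8 at 0.962% and MT-CYB at 3.33% of the 13-gene sum, for the score of B and plasma cell markers at 3.52, and for CSF3R at 34.03 CPM. Little_R stood apart for the proteasome core score at -1.13, the mesothelial marker score at 2.81, HSPD1 at 4887 CPM, SOD1 at 644 CPM and MYH7 at 1418 CPM. Heart 4X0339 stood apart for the smooth muscle and pericyte score at -1.15 and TAGLN at 75.4 CPM, and 4X0354 for MT-ND4 at 6.80% of the 13-gene sum and VEGFA at 812 CPM.

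The slope of nuclear genes on mitochondrial share differed between the extraction years for 3783 genes in edgeR's quasi-likelihood test of the difference. Year and range of share cannot be told apart in it.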

How the results depend on the processing

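No paired analysis was possible because each heart comes from a different animal and the labels give no numbers shared between groups. Of 7732 genes called between high and other hearts, leaving out each high heart in turn gave 6949 to 8392. Counts beyond 1.5 times were 13 at RIN 5 or below, 1637 with limma on the normalized score matrix and, in settings chosen after seeing the data, 734 at RIN 5 or below without the sex term, 3601 in males only and 4008 for a slope over the hearts of 2018 without 537 and Little_R. The other settings stayed within 1.5 times, among them 8362 with TMM and 8940 with DESeq2. The share of higher calls was 60% as reported, 54% with TMM, 77% on orthologous exon counts and 77.2% on the score matrix. On orthologous exon counts, 7194 of 17532 genes were higher and 2154 lower. The 265 genes with a slope in the earlier hearts became 60 with TMM, 170 without the filter and 418 without the heart of highest share. The difference of slopes gave 4105 genes with TMM and 3056 without 537 and Little_R. Leaving out 1 heart gave 0 to 1 single mitochondrial genes past the threshold, the 1 without 4X0339.

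List medians reversed in 9 cases: mitochondrial DNA replication and transcription to 0.012 and adipocyte markers to 1.88 at RIN 5 or below, interferon-stimulated genes to -0.095 there without the sex term, B and plasma cell markers to -0.32 above RIN 5, and in females only macrophage -0.88, neutrophil -0.80, T and NK cell -0.11, B and plasma cell -0.29 and red cell markers -0.14. HBA2 reversed to -0.022 in females only and H1-10 to -0.0064 at RIN 5 or below without the sex term. The cause was not tested. With 2 high hearts among females and 4 at RIN 5 or below, these subsets limit what can be called.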
